A study of Arabidopsis thaliana with 9 samples.

Results

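In developing siliques, 19 genes had their lowest mRNA in ago3-3 homozygous plants, an intermediate level in ago3-3 heterozygous plants and their highest level in wild-type plants, without overlap between the genotypes. AGO3 itself was one of them. The 19 came from 34262 rows of the mRNA table, of which 15970 had a mean of at least 5 CPM (counts per 1000000 of the library's column total) over the 6 libraries. A member had to reach that mean, hold both homozygous values below both heterozygous values and both heterozygous values below both wild-type values, and have a wild-type mean at least 1.5 times the homozygous mean. They were 0.119% of the 15970 genes. Because the members were chosen on these mRNA values, the mRNA levels below are a description and carry no test.

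The mRNA libraries came from siliques (the fruits, with their young seeds) of Arabidopsis thaliana, ecotype Columbia-0, at 1 to 5 days after pollination. There were 2 samples, numbered as replicates, for each of 3 genotypes: homozygous for ago3-3, heterozygous for ago3-3, and wild type. The labels mark both mutant genotypes as ago3-3, and the sample titles tell them apart; the labels do not say how the allele was made or how many plants were pooled. The small RNA libraries, 1 each, held RNA recovered with AGO3 from ago3-3 siliques that carried the tagged transgene pAGO3:FHA-AGO3, RNA that a FLAG antibody pulled down from wild-type siliques as the control, and total small RNA of wild-type siliques.

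ARGONAUTE proteins bind small RNAs and are guided by them to matching transcripts, which they cut or repress, or to matching chromatin. AGO3 lies directly beside AGO2, its close relative, in the Arabidopsis genome. The other named members encode proteins of other kinds: a pollen tube peptide signal, enzymes that handle reactive oxygen, an iron store, an enzyme of the cuticle, a cell surface proteoglycan and a MYB transcription factor.

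Library totals ran from 30338416 to 36258980 counts, so that 3 counts equalled 0.0827 to 0.0989 CPM, and the 19 members held between 71 and 9306.5 counts in any library. Homozygous replicate 2 and wild type replicate 1 stood apart from the other 4 libraries on the first principal component, at 44.2 and 49.9 against -27.1 to -20. Structural RNA rows took 3.63% and 4.37% of the counts in homozygous, 5.78% and 4.49% in heterozygotes and 3.04% and 8.13% in wild-type libraries. The column total therefore gave wild type replicate 2 the smallest share for protein-coding genes, 87.5%. Markers of the silique wall (13 of 14), the seed coat (10 of 10), endosperm (4 of 10) and embryo (5 of 9), and of phloem and chalaza (9 of 9), pollen (6 of 8), petal and stamen (4 of 10) and green tissue (6 of 6), reached a mean of 5 CPM, and no marker of these lists was at 0 in all 6 libraries.

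AGO3 had 2.19 and 3.36 CPM in homozygous siliques, 12.3 and 12.4 CPM in heterozygotes and 31.0 and 16.3 CPM in wild-type siliques. The heterozygous libraries were close together, and the wild-type libraries were far apart, with replicate 1 the higher. The homozygous mean was 2.78 ± 0.83 (SD) CPM, the heterozygous mean was 12.4 ± 0.0341 (SD) CPM and the wild-type SD was 10.4 CPM (n = 2 each). Only the heterozygous SD was small beside its mean. The wild-type mean was 8.51 times the homozygous mean, and the edgeR log2 differences from wild type were -3.15 ± 0.31 (SE) for homozygous and -0.96 ± 0.28 (SE) for heterozygous siliques. In homozygous siliques AGO3 was still counted, at 71 and 107 counts. AGO2, beside it, had 47.2 and 57.9 CPM in homozygous, 51.1 and 48.8 CPM in heterozygotes and 45.0 and 41.6 CPM in wild-type siliques and was not a member.

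**Figure D1:**
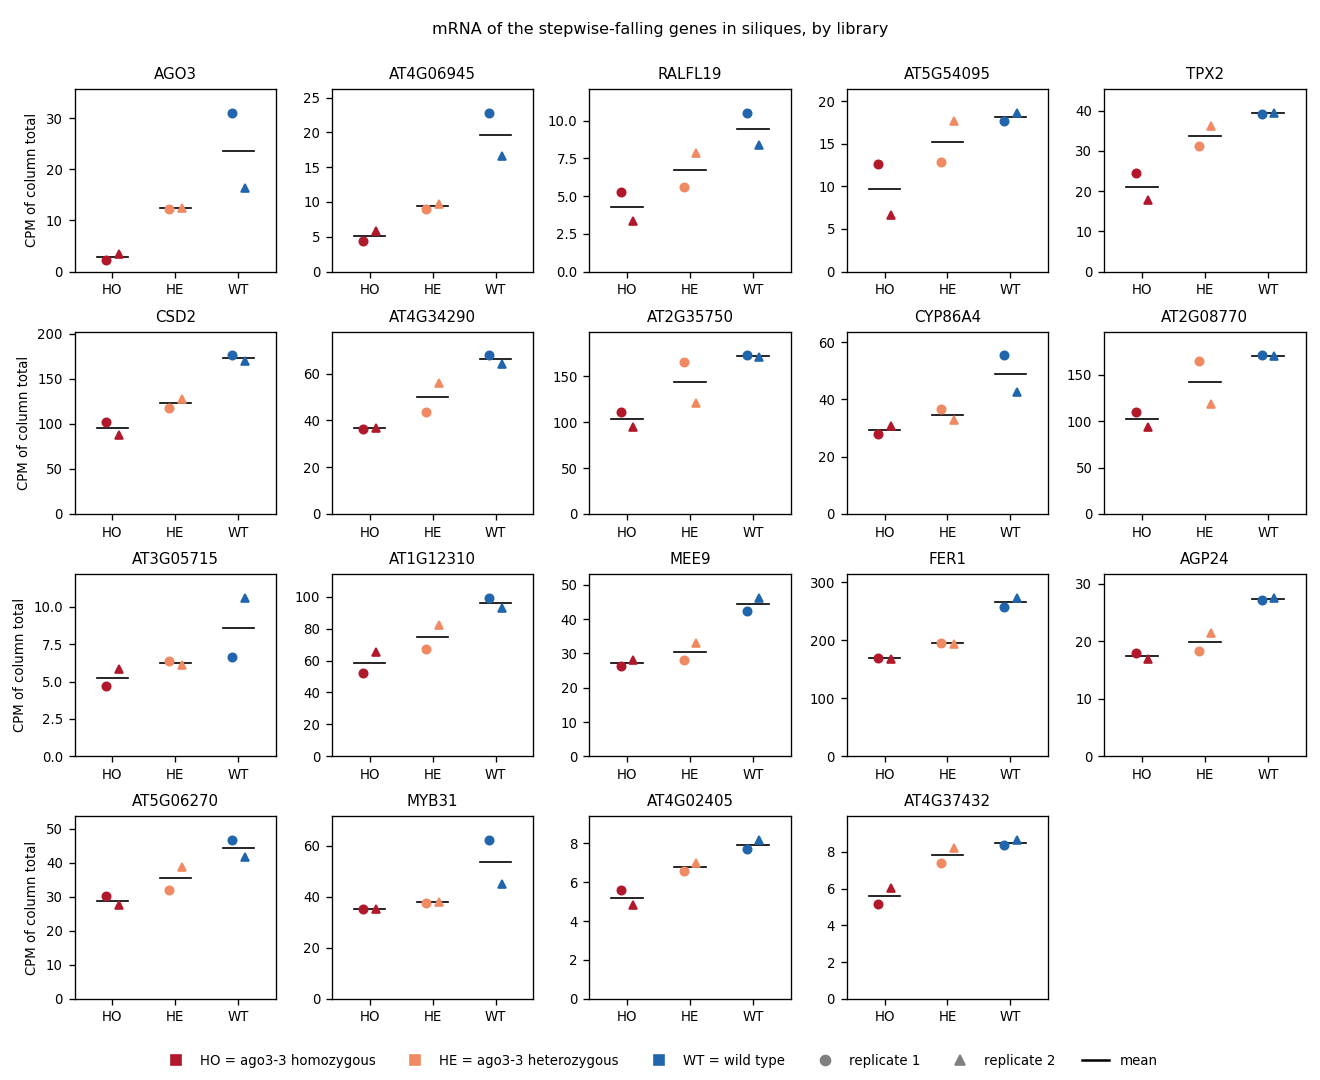
Each panel plots 1 of the 19 genes, with CPM of the column total on a linear axis from 0 and the genotypes along the bottom; circles are replicate 1, triangles replicate 2 and bars the mean of 2 libraries. AGO3 has the highest ratio of wild-type to homozygous mean, 8.51, while the wild-type mean is under 2 times the homozygous mean in 16 of the 19.

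After AGO3, the largest ratio belonged to AT4G06945, a long non-coding RNA gene with no symbol in the reference table. It had 4.35 and 5.78 CPM in homozygous, 9.06 and 9.68 CPM in heterozygotes and 22.8 and 16.6 CPM in wild-type siliques. As for AGO3, wild type replicate 1 was the highest library. The wild-type mean was 3.90 times the homozygous mean, and edgeR's log2 difference between homozygous and wild-type siliques was -2.04 ± 0.20 (SE). Its protein-coding neighbour AT4G20190 stayed at 0.126 CPM or below in every library, and the overlapping non-coding gene AT4G06950 had no counts.

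RALFL19, a RALF-type peptide that pollen tubes secrete to control the integrity of their own wall, was the only other member with a ratio above 2. It had 5.24 and 3.33 CPM in homozygous, 5.63 and 7.85 CPM in heterozygotes and 10.5 and 8.41 CPM in wild-type siliques. The steps were narrow, 0.394 CPM between the highest homozygous and the lowest heterozygous value and 0.551 CPM between the highest heterozygous and the lowest wild-type value. The wild-type mean was 2.21 times the homozygous mean. In whole siliques, fewer pollen tubes and less RNA per pollen tube cannot be told apart.

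The pollen and pollen tube list put RALFL19 beside its own pathway. Of 24 list genes tested, 21 were lower in homozygous than in wild-type siliques, with a median log2 difference of -0.79 against 0.01 over all tested genes. edgeR's quasi-likelihood test called none of the 24, and DESeq2 called 6, all lower, of the 16 it gave an adjusted p. Over all genes, DESeq2 called 66 of 16331 lower in this comparison (0.404%). RALFL19, which the rule chose on this same contrast, is among the 6 and among the 21. The list was also chosen with earlier results of these data known, so these counts are a description. In heterozygous siliques, however, 14 of the 24 were higher and 10 lower than in wild-type siliques, with a median of 0.06, and RALFL19 was the only list gene in stepwise order. AGP11, an arabinogalactan protein of pollen, had 7.52 and 9.14 CPM in homozygous, 14.9 and 28.9 CPM in heterozygotes and 27.3 and 29.5 CPM in wild-type siliques. It missed the order only because heterozygous replicate 2 exceeded wild type replicate 1. VGD1, by contrast, had a higher mean in heterozygous than in wild-type siliques. Its values were 77.2 and 46.6 CPM in homozygous, 90.9 and 115 CPM in heterozygotes and 104 and 68.7 CPM in wild-type siliques. RALF4, the partner peptide of RALFL19 in the pollen tube, had 3.05 and 1.92 CPM in homozygous, 3.51 and 4.90 CPM in heterozygotes and 5.13 and 3.07 CPM in wild-type siliques. The summed level of 8 pollen markers was 82.7 to 124 CPM in homozygous, 156 to 225 CPM in heterozygotes and 147 to 207 CPM in wild-type libraries, and its part in the RALFL19 values was not tested.

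A pair of members encode enzymes that remove reactive oxygen. CSD2 is the chloroplast copper/zinc superoxide dismutase, whose mRNA is a known target of miR398. It had 102 and 87.8 CPM in homozygous, 118 and 128 CPM in heterozygotes and 176 and 170 CPM in wild-type siliques. The gaps of 15.9 and 42.2 CPM exceeded the difference between the 2 libraries of any genotype. The wild-type mean was 1.83 times the homozygous mean, with an edgeR log2 difference of -0.96 ± 0.11 (SE) for homozygous and -0.54 ± 0.11 (SE) for heterozygous against wild-type siliques. TPX2, a peroxiredoxin that reduces peroxides with thioredoxin, had 24.4 and 17.7 CPM in homozygous, 31.1 and 36.1 CPM in heterozygotes and 39.2 and 39.4 CPM in wild-type siliques. TPX2 overlaps GAD2 and resembles its neighbour TPX1, so reads could be shared; TPX1 stood at 240 and 198 CPM in homozygous, 218 and 215 CPM in heterozygotes and 218 and 226 CPM in wild-type siliques.

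Other superoxide dismutases did not follow CSD2. CSD1, the cytosolic copper/zinc enzyme and also a miR398 target, had 95.8 and 106 CPM in homozygous, 104 and 99.6 CPM in heterozygotes and 101 and 102 CPM in wild-type siliques, so the genotypes overlapped. CCS, the copper chaperone that loads these enzymes, had 24.7 and 25.2 CPM in homozygous, 26.7 and 29.3 CPM in heterozygotes and 31.5 and 28.9 CPM in wild-type siliques; it was out of order only between heterozygous replicate 2 and wild type replicate 2. FSD1, the iron superoxide dismutase that plants make when copper is short, ran the other way, at 299 and 217 CPM in homozygous, 241 and 205 CPM in heterozygotes and 189 and 152 CPM in wild-type siliques. Its homozygous and heterozygous libraries overlapped. Of 20 copper and superoxide dismutase genes tested, 12 were lower and 8 higher in homozygous than in wild-type siliques, with a median log2 difference of -0.05. DESeq2 called 1 lower, CSD2, of 18 with an adjusted p, and called 0.404% of all genes lower. The rule had chosen CSD2 on these same values, so its call says nothing about the list. No other gene of the list was called by DESeq2, and edgeR called none.

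FER1, a plastid ferritin that stores iron, had 169 and 168 CPM in homozygous, 196 and 193 CPM in heterozygotes and 257 and 273 CPM in wild-type siliques. Both gaps between neighbouring genotypes, the wider of them 60.2 CPM below wild type, were larger than the differences between the 2 libraries of any genotype. The other ferritins with a mean of at least 5 CPM overlapped between genotypes: FER3 had 57.9 and 46.4 CPM in homozygous, 54.4 and 52.6 CPM in heterozygotes and 57.8 and 54.6 CPM in wild-type siliques. FER4 had 32.5 and 32.3 CPM in homozygous, 34.1 and 36.7 CPM in heterozygotes and 37.6 and 34.1 CPM in wild-type siliques. Of 20 iron genes tested, 9 were lower and 11 higher in homozygous than in wild-type siliques, with a median log2 difference of 0.16. DESeq2 called 1 lower, FER1, of 12 with an adjusted p, and called 0.404% of all genes lower. As FER1 was chosen by the rule on these same values, its call says nothing about the list. No other iron gene was called by DESeq2, and edgeR called none.

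**Figure D2:**
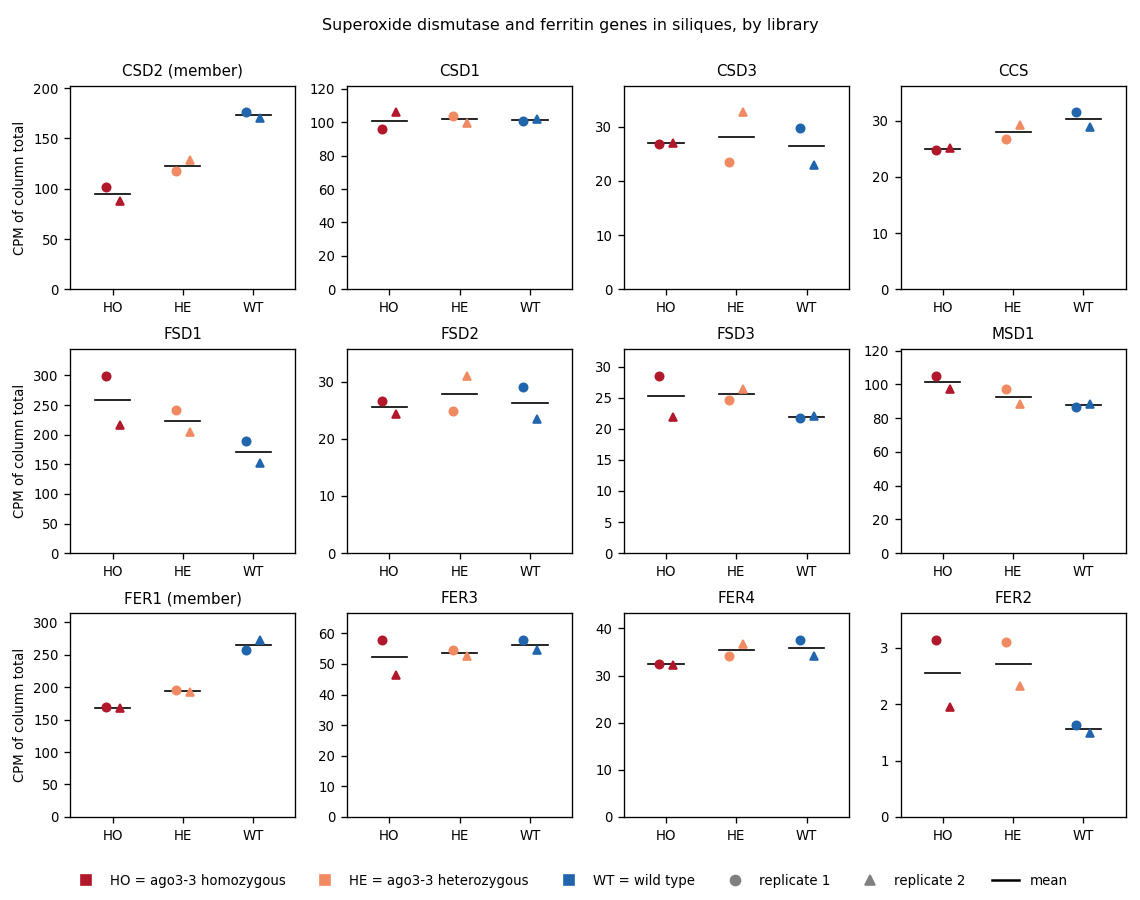
CPM of the column total for superoxide dismutase genes, their chaperone CCS and the ferritin genes, by genotype; circles are replicate 1, triangles replicate 2 and bars the mean of 2 libraries. CSD2 and FER1 separate the genotypes without overlap and CSD1 does not. FSD1 and MSD1 have their highest mean in homozygous siliques, MSD1 without overlap between genotypes.

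Of the members with surface or cuticle roles, CYP86A4 encodes a cytochrome P450 that hydroxylates fatty acids for cutin. It had 27.9 and 30.7 CPM in homozygous, 36.5 and 32.9 CPM in heterozygotes and 55.4 and 42.7 CPM in wild-type siliques. AGP24, an arabinogalactan protein, had 18.0 and 16.9 CPM in homozygous, 18.4 and 21.5 CPM in heterozygotes and 27.2 and 27.6 CPM in wild-type siliques. For both genes the larger step lay between heterozygous and wild-type siliques. GPAT4, which neighbours CYP86A4 and encodes an acyltransferase of cutin synthesis, had 120 and 161 CPM in homozygous, 125 and 140 CPM in heterozygotes and 198 and 149 CPM in wild-type siliques, with overlap between homozygous and wild type.

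MYB31, a MYB transcription factor, had 35.2 CPM in both homozygous libraries, 37.6 and 38.0 CPM in heterozygotes and 62.2 and 45.2 CPM in wild-type siliques. Its homozygous and heterozygous values were nearly level and wild type replicate 1 was far above all others. MEE9, named for the embryo arrest of its maternal mutant, had 26.2 and 28.0 CPM in homozygous, 28.1 and 32.9 CPM in heterozygotes and 42.4 and 46.2 CPM in wild-type siliques. The order of MEE9 rested on a gap of 0.0254 CPM between homozygous replicate 2 and heterozygous replicate 1.

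Of the protein-coding members without a symbol, AT4G34290 had 36.5 and 36.9 CPM in homozygous, 43.6 and 56.1 CPM in heterozygotes and 67.8 and 64.3 CPM in wild-type siliques. AT1G12310 had 52.0 and 65.5 CPM in homozygous, 67.2 and 82.2 CPM in heterozygotes and 99.3 and 92.7 CPM in wild-type siliques. In both, every genotype was separated by more than 1 CPM; AT1G12310 overlaps AT1G12320, so reads could be shared. AT5G06270 had 30.1 and 27.5 CPM in homozygous, 32.0 and 38.8 CPM in heterozygotes and 46.6 and 41.8 CPM in wild-type siliques. AT5G54095 had 12.6 and 6.66 CPM in homozygous, 12.8 and 17.7 CPM in heterozygotes and 17.7 and 18.6 CPM in wild-type siliques. The order of AT5G54095 rested on gaps of 0.254 and 0.026 CPM. AT4G02405 had 5.61 and 4.81 CPM in homozygous, 6.58 and 7.01 CPM in heterozygotes and 7.72 and 8.17 CPM in wild-type siliques; it overlaps AT4G02400.

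The remaining members were not independent of each other or were low. The protein-coding gene AT2G35750 and the small nucleolar RNA gene AT2G08770 overlap and held almost the same counts. AT2G35750 had 111 and 95.2 CPM in homozygous, 166 and 121 CPM in heterozygotes and 173 and 171 CPM in wild-type siliques, and AT2G08770 had 110 and 93.8 CPM, 165 and 119 CPM, and 171 and 170 CPM in the same order. They are best read as 1 measurement, and their heterozygous libraries were far apart. AT3G05715, a small nucleolar RNA gene, had 4.72 and 5.81 CPM in homozygous, 6.39 and 6.09 CPM in heterozygotes and 6.62 and 10.6 CPM in wild-type siliques. AT4G37432, a long non-coding RNA gene that overlaps CYP91A2, had 5.18 and 6.06 CPM in homozygous, 7.42 and 8.23 CPM in heterozygotes and 8.36 and 8.64 CPM in wild-type siliques.

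Just inside the ratio limit stood AT4G37432 at 1.51 and AT4G02405 and MYB31 at 1.53, and just outside stood AT4G00810 and AT2G45630 at 1.49 and AT1G78460 at 1.46. By mean level, AT4G02405 at 6.65 CPM, AT3G05715 at 6.71 CPM and RALFL19 at 6.83 CPM were nearest inside. Nearest outside were the small nucleolar RNA gene AT1G09533 at 3.98 CPM, AT4G24140 at 3.09 CPM and CPK31 at 2.50 CPM. The ratio was under 2 in 16 of the 19 members, with a median of 1.67. A gap of under 1 CPM between neighbouring genotypes occurred in 7 members.

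The heterozygous mean lay nearer the homozygous than the wild-type mean in 13 members and nearer the wild-type mean in 6. On a scale from 0% at the homozygous mean to 100% at the wild-type mean, the median member stood at 42.9% and AGO3 at 45.9%. MYB31 at 14.1% and MEE9 at 19.6% were the lowest, with nearly the whole difference between heterozygous and wild-type siliques. AT4G37432 at 76.6% and TPX2 at 69.0% were the highest, with most of it between homozygous and heterozygous siliques. With 2 libraries per genotype these positions carry no error estimate, and they moved with single libraries. Without wild type replicate 1, AGO3 stood at 71.1% and MYB31 at 26.2%, and without wild type replicate 2 they stood at 33.9% and 9.67%. MEE9 stood at 33.8% without heterozygous replicate 1 and at 5.4% without heterozygous replicate 2. With 1 library left out, 10 to 14 members lay below 50%.

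**Figure D3:**
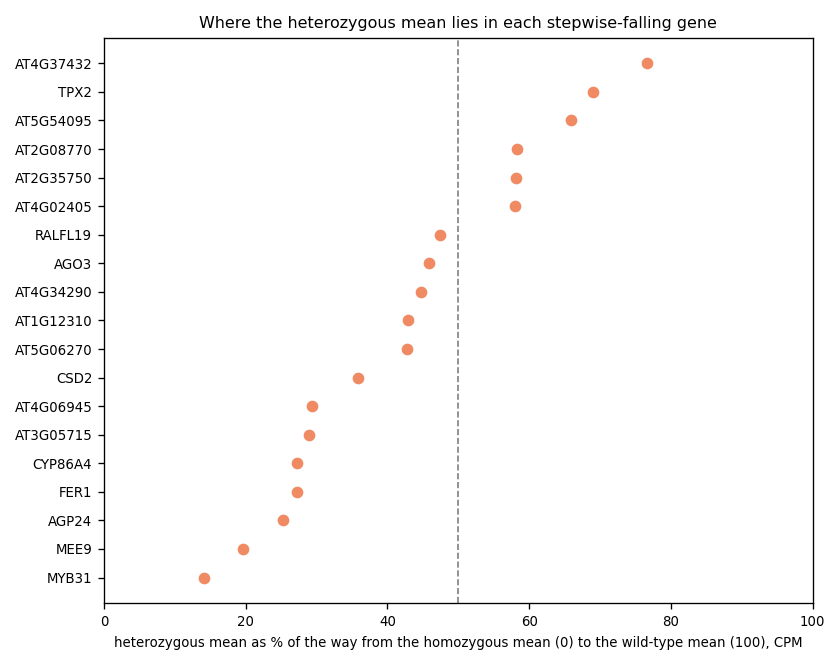
Position of the heterozygous mean for each of the 19 genes, as a percentage of the way from the homozygous mean (0) to the wild-type mean (100), both in CPM; the dashed line marks 50. AGO3 lies at 45.9% with all 6 libraries and at 71.1% without wild type replicate 1, and the members run from 14.1% for MYB31 to 76.6% for AT4G37432.

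Across the 6 libraries, log2(CPM + 1) of the 18 other members correlated with that of AGO3 at r = 0.608 to 0.960, values that the shared order of genotypes fixes in part and that are given as a description. Over all 15970 genes the most similar to AGO3 were the oligopeptide transporter gene OPT1 (r = 0.977), AT4G27100 (r = 0.967), AT4G06945 (r = 0.960), RPL4 (r = 0.952) and AT2G33420 (r = 0.948). Of these 5, only AT4G06945 met the rule. OPT1 had 83.6 and 83.8 CPM in homozygous, 102 and 97.3 CPM in heterozygotes and 109 and 99.6 CPM in wild-type siliques, with overlap between heterozygous and wild-type libraries.

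The opposite order, homozygous above heterozygous above wild type with the same limits, was met by 37 genes, or 0.232%. With the ratio limit dropped, 73 genes (0.457%) were in falling order and 521 (3.26%) in rising order. With the order dropped and the ratio kept, 250 genes (1.57%) were lower and 227 (1.42%) higher in homozygous than in wild-type siliques. This balance depended on how libraries were scaled: with TMM-scaled library sizes 28 genes met the falling and 10 the rising rule, and with the column total without structural RNA 21 and 27. Under CPM of the column total the median gene of the 15970 was higher by a log2 difference of 0.09 in homozygous than in wild-type siliques. Of the 19 members, 15 met the rule under all 4 other scalings. The 4 that did not were AT2G08770, AT3G05715, AT4G37432 and AT5G54095.

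Without homozygous replicate 2 and wild type replicate 1, the libraries that stood apart, 140 genes met the loosened falling rule, 15 of the 19 among them, and 422 met the rising rule. MYB31, AT4G02405, AT5G06270 and AT5G54095 then had a ratio under 1.5. AGO3, CSD2, FER1, RALFL19, TPX2 and AT4G06945 were retained.

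Set against the tests fitted to all genes, edgeR's quasi-likelihood test at an adjusted p under 0.05 called none of the 19 for homozygous against wild-type siliques and 0 of 22702 genes as lower (0.0%). At an unadjusted p under 0.05, 1293 genes passed in either direction, 810 of them lower (3.57%), all 19 members included. For heterozygous against wild-type siliques 597 lower genes passed (2.63%), 11 members among them, and for homozygous against heterozygous siliques 423 (1.86%), 12 members among them. DESeq2 called 15 of the 19 among 66 lower genes (0.404% of the 16331 given an adjusted p). For heterozygous against wild-type siliques DESeq2 called CSD2 and FER1, of 16 lower genes (0.209% of 7669); 8 members, AGO3, AT4G06945 and RALFL19 among them, got no adjusted p from DESeq2 there and could not be called. For homozygous against heterozygous siliques it called AGO3 alone, of 18 lower genes (0.0871% of 20661). The rule used these contrasts, so the counts say nothing further about the members.

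By annotation, 15 of the 19 members were protein-coding, 78.9% against 98.4% of the 15970 genes. Long non-coding RNA genes made up 2 of 19 (10.5%) against 0.601%, and small nucleolar RNA genes 2 of 19 (10.5%) against 0.182%. AT2G08770 held nearly the same counts as AT2G35750, and with TMM-scaled library sizes neither small nucleolar RNA member met the rule, leaving 0 among the 28 genes that did. With protein-coding totals 1 long non-coding and 1 small nucleolar RNA gene were among 22. The members lay on all 5 nuclear chromosomes, with 6 on chromosome 1, 4 each on chromosomes 2, 4 and 5, and 1 on chromosome 3, and none neighboured AGO3.

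Of 15 pathway lists, 4 held a member: the ARGONAUTE family, pollen, copper and iron lists. In the ARGONAUTE family AGO3 was the only gene of 9 tested in falling order, and AGO1, at 183 and 200 CPM in homozygous, 171 and 168 CPM in heterozygotes and 160 and 152 CPM in wild-type siliques, was in rising order. The other 11 lists held 218 tested genes, not all of which reached a mean of 5 CPM. Of those that did, 0 were in falling and 7 in rising order. Among all 15970 genes of that mean, 0.457% were in falling and 3.26% in rising order. Without the limit on the mean, 1 of the 218 was in falling order, the cold list gene GOLS3. It had 0.0925 and 0.0943 CPM in homozygous, 0.223 and 0.174 CPM in heterozygotes and 0.441 and 0.461 CPM in wild-type siliques. The median log2 differences of these 11 lists between homozygous and wild-type siliques ran from -0.48 for cold-regulated and early light-induced genes to 1.34 for seed storage and maturation genes. DESeq2 called 2 of their genes higher and 2 lower. Over all genes it called 10 higher and 66 lower of 16331 given an adjusted p. Some list genes got none, such as 6 of 14 salicylic acid defence genes. The seed storage genes varied as widely within genotypes: OLEO1, an oil body protein gene, had 50.9 and 2.07 CPM in homozygous, 23.1 and 97.0 CPM in heterozygotes and 3.94 and 15.3 CPM in wild-type siliques. Its lowest libraries were homozygous replicate 2 and wild type replicate 1, which also stood apart on the first principal component.

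The small RNA libraries were not used to choose the members and show the reads recovered with AGO3 in the windows that each member overlaps. These counts do not tell small RNAs of a member from those of flanking sequence or overlapping genes. With 1 library per condition there is no replicate check, and the 95% exact binomial intervals cover counting error only. Enrichment of a 500 bp window needed 20 or more AGO3 immunoprecipitate reads, and an RPM (reads per 1000000), with 1 added, that was 4 or more times the control value. At 0 control reads this takes 112 AGO3 immunoprecipitate reads in a window, and only 7 of the 19 members (36.8%) held that many over all their windows, against 17.2% of all genes, so the other 12 could not qualify. AGO3 was the only 1 of 19 members that overlapped such a window (5.26%), against 149 of 15919 expressed genes placed on the windows (0.936%). With genes extended by 1000 bp it was still 1 of 19, against 2.14%, and at 2 times the control AGO3 and CYP86A4 qualified, against 3.56%. Over total small RNA, AGO3 and the pair AT2G35750 and AT2G08770 qualified, against 1.92%.

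The 10 windows of AGO3 held 6158 reads in the AGO3 immunoprecipitate, 540 in the control and 179 in total small RNA. In RPM these were 166, 21.1 and 4.45, so the locus stood at 7.85 times the control (7.19 to 8.59). The 6 enriched windows ran without a break over chr1:11189501-11192500 (TAIR10, counted from 1), with 540 to 1031 AGO3 immunoprecipitate reads each, against 11 to 97 control reads. Reads from the tagged transgene cannot be told apart from those of the gene itself.

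Of the other members, those with the most small RNA reads stood on both sides of the control. The windows shared by AT2G35750 and AT2G08770 held 392 RPM in the AGO3 immunoprecipitate, 289 RPM in the control and 79.7 RPM in total small RNA, 1.35 times the control (1.32 to 1.39) and 4.91 times total small RNA. MEE9 held 713 reads in the AGO3 immunoprecipitate, 257 in the control and 705 in total small RNA, which in RPM was 1.91 times the control (1.65 to 2.21). CYP86A4 stood at 3.12, 1.95 and 2.51 RPM in the same libraries, 1.60 times the control (1.14 to 2.27).

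Other members were poorer in the AGO3 immunoprecipitate than in the control. FER1 held 144 reads in the AGO3 immunoprecipitate and 346 in the control, 0.287 times the control in RPM (0.234 to 0.349). AT1G12310 held 111 and 154 reads, 0.496 times the control (0.385 to 0.638). RALFL19 held 3 reads in the AGO3 immunoprecipitate, 106 in the control and 6 in total small RNA, a ratio of 0.0195 (0.00396 to 0.0585). Nearly all of its control reads, 103, fell in 1 window, chr2:14288501-14289000. CSD2 held 14 reads in the AGO3 immunoprecipitate and 16 in the control, 0.603 times (0.272 to 1.32), an interval that spans 1. The median member held 25 AGO3 immunoprecipitate reads and 50 control reads, against 39 and 50 for all 15919 genes.

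**Figure D4:**
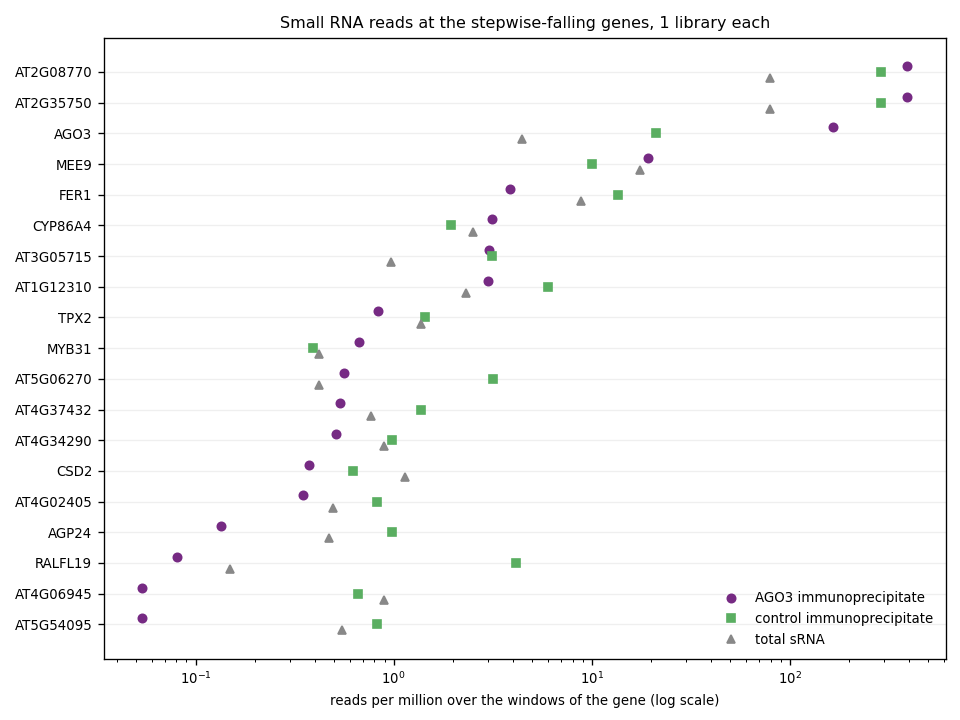
Small RNA RPM (log axis) summed over the windows of each of the 19 genes in the AGO3 immunoprecipitate (circles), the control immunoprecipitate (squares) and total small RNA (triangles), 1 library each. AGO3 has the highest ratio to the control, 166 against 21.1 RPM, and RALFL19 lies furthest below it, at 0.0807 against 4.14 RPM; AT2G08770 and AT2G35750 share the same windows.

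For the miRNAs known to target members, the window of MIR398b held 2490 RPM in the AGO3 immunoprecipitate, 2880 RPM in the control and 4150 RPM in total small RNA, and MIR398c held 2500, 2890 and 4150 RPM. MIR398b and MIR398c held almost the same number of reads in each library and are best read as 1 measurement. MIR398a, with far fewer reads, held 10.8 RPM in the AGO3 immunoprecipitate, 7.38 RPM in the control and 12.5 RPM in total small RNA, 1.46 times the control (1.23 to 1.75). MIR403, whose miRNA targets AGO2 and AGO3, held 493 RPM in the AGO3 immunoprecipitate, 337 RPM in the control and 1140 RPM in total small RNA. The total small RNA and control came from wild-type siliques, so miRNA levels in homozygous and heterozygous siliques were not measured. The AGO3 immunoprecipitate, from mutant siliques with the tagged transgene, gives the reads recovered with AGO3 and not a miRNA level.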

How the data were processed

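The mRNA values were deposited as estimated counts for each gene without depth scaling, made with HISAT2 and featureCounts on TAIR10 per the submitters' processing notes; no source used here gives versions, strand or multi-mapping settings. Of 205572 values, 7.88% were not whole. Structural RNA rows numbered 1429 (their shares are given per library), and all 285 organelle rows were 0. The deposited small RNA table held read counts per 500 bp window (Bowtie, TAIR10, per the same notes), with totals of 37189850 (AGO3 immunoprecipitate), 25613847 (control) and 40262802 (total small RNA).

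CPM of the column total gave the members. Counts were rounded and fitted on all 6 libraries with edgeR 4.0.16 (limma 3.58.1, R 4.3.3; TMM, expression filter, quasi-likelihood test, 3 residual degrees of freedom, Benjamini-Hochberg adjustment at 0.05); SE is the log2 difference over the root of F. DESeq2 1.42.0 was the alternative. The labels do not say that samples were separate plants, so spreads may be technical. A RefSeq gene table of TAIR10.1 supplied symbols (32548 rows matched) and was used to place nuclear genes on windows. This placement was checked at 326 miRNA genes, whose median was 278 total reads in place and 11.5 when moved by 500 bp. Named genes were AGO3, AGO2, all members, list members, genes beside the limits and the 5 most like AGO3; neighbours and other list genes given for contrast were chosen after their values were seen. The members and the 15 pathway and 8 marker lists were chosen with earlier results of these data known. Of the list symbols, RALF4 and RALF19 were matched as RALFL4 and RALFL19. Promoter sequences were not analysed here. The code was tested on simulated data with Python 3.11.15, numpy 2.4.6, pandas 2.3.3 and scipy 1.17.1.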

Additional observations from a re-analysis of the deposited data

How the results depend on the processing

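The count of 19 members was 28 with TMM, 21 without structural RNA and 22 with protein-coding totals, and 29 with DESeq2 size factors. It was 38 at the lower ratio limit tried, 3 at a ratio of 2, 36 at a mean of 1 CPM, 15 at a mean of 10 CPM and 69 with no minimum. Leaving out 1 library loosens the order, and gave 33 and 57 without homozygous replicates 1 and 2, 36 and 61 without heterozygous replicates 1 and 2, and 83 and 88 without wild type replicates 1 and 2, with 16 to 19 of the 19 kept. Lost were AT1G12310, AT3G05715 and AT4G37432 without homozygous replicate 1, AT4G02405, AT5G06270 and AT5G54095 without homozygous replicate 2, CYP86A4, MYB31 and AT5G06270 without wild type replicate 1, and AT3G05715, AT4G02405 and AT4G37432 without wild type replicate 2. Without both homozygous replicate 2 and wild type replicate 1, chosen after the data were seen like the protein-coding totals and the heterozygous positions with libraries left out, it was 140. Order required only within replicate number, the replicate block, gave 29. Same-numbered deviations correlated at -0.0447, -0.364 and -0.0877, so no pairing by number showed. With 2 libraries per genotype these correlations rest on 1 difference per genotype, and a batch shared by number was not tested. edgeR with the block still called 0 in each comparison.

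For homozygous against wild type, heterozygous against wild type and homozygous against heterozygous siliques, DESeq2 called 76, 18 and 23 genes, and edgeR without both libraries named above called 54, 22 and 5. At an unadjusted p under 0.05, edgeR passed 1293, 1006 and 745. Without a filter, 4 were called in the first. With 1 library left out, calls ran from 0 to 3, 0 to 4 and 0 to 1, the lone library being assumed to vary like the others. The AGO2 log2 difference between homozygous and heterozygous siliques (0.04; -0.13 to 0.18 with 1 library left out) turned to -0.13 without homozygous replicate 2, to -0.03 without heterozygous replicate 2 and to -0.13 without both libraries; the cause was not tested. Over all members and AGO2, 632 other values kept their direction and side of the threshold and 25 passed it only under the alternative. Members with an enriched window numbered 1, 2 at 2 times the control, 3 over total small RNA and 1 within 1000 bp. At 2 libraries per genotype, gaps of a few hundredths of a CPM decide the membership of MEE9 and AT5G54095.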
